A study of Homo sapiens with 9 samples.

Results

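Receptor tyrosine kinases and the ephrin receptors among them were followed across inhibitor treatment of H69 cells, an established neuroendocrine line from a human small cell lung cancer. The set was a list of 38 gene symbols, of which 36 had a probe set annotated to that symbol alone and were measured, out of 19775 genes in all. DDR1 and EPHB2 were not analysed here. Each gene was represented by its brightest such probe set over all 9 arrays, and its values are log2 expression levels. The cells had received DMSO (control), PIK75 at 100 nM or TGX221 at a labelled 1 mM for 24 h, with 3 arrays per group, all of the same line without a genetic change named in the labels. The treatment protocol gives DMSO for the control cells, while the treatment field of those samples reads none. Whether mM is the right unit for TGX221 was not checked. Whether the arrays of a group came from separate cultures is not stated, so p-values measure only the spread between these arrays, which may be technical.

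Receptor tyrosine kinases sit in the cell membrane, bind a growth factor outside and phosphorylate tyrosines inside, which recruits PI3K, RAS and other relays. Ephrin receptors are the largest family among them, and their ligands, the ephrins, are themselves bound to the membrane of the neighbouring cell. Small cell lung cancer is known for the receptor KIT and its ligand, stem cell factor, encoded by KITLG. PIK75 and TGX221 inhibit PI3K, which lies below these receptors, with a preference for the p110α isoform and the p110β isoform respectively. The comparisons ask how the transcripts of the receptors differed after 24 h of each inhibitor, and proteins or their phosphorylation were not measured.

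The cells carried the markers of their type: all 13 measured neuroendocrine markers had mean values of at least 6, the level below which a probe set is called dim here, a limit set for this work since no detection calls were used. The mean of these markers lay between 11.56 and 11.58 on the control arrays, between 11.23 and 11.27 with PIK75 and between 11.58 and 11.6 with TGX221. With PIK75 9 of the 13 neuroendocrine markers were called lower and 1 higher, where 25.2% of all genes were lower and 35.2% higher. Of all genes with a control mean of at least 9, a level chosen after the values were seen, 50.9% were lower and 22.3% higher. The falls described next thus ran beside falls of the neuroendocrine markers, whose part in them was not tested. Arrays of a group correlated at 0.9964 to 0.9985, a value taken over genes, which do not count as replicates. The median of all gene values lay between 8.201 and 8.229 on the 9 arrays, since the deposited values had been made alike in distribution.

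With PIK75, the changes of at least 1.5-fold in the set were falls, and most such changes over all genes were falls too. EPHB1 was 2.78-fold lower, EPHA7 2.44-fold, KITLG 2.06-fold, ERBB4 1.76-fold and KIT 1.63-fold, and these were the measured genes of the set whose difference from control reached 0.5 on the log2 scale. By limma, 24 of the 36 genes (66.7%) passed at an adjusted p below 0.05, against 60.4% of all genes in the same comparison. Higher values were called for 16 of the 36 genes, against 35.2% of all genes. Lower values were called for 8 of the 36, against 25.2% of all genes. None of the 16 rises reached 1.5-fold, and the highest was 0.40 (log2), while 5 of the 8 falls did. Among all 19775 genes, 292 were called higher and 2062 lower by at least 1.5-fold. The median difference of all 36 genes was 0.14, beside 0.09 over all genes. The 3 PIK75 arrays lay apart from the 3 control arrays for 17 genes above and 9 below, and 64.7% of all genes were apart in one direction or the other.

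The direction of the small rises depended on the scaling. Centring the arrays on the hybridization spikes, added after labelling, shifted the median difference of all genes from 0.09 to -0.26, and that of the set from 0.14 to -0.22. Under that scaling 0 of the 36 genes were called higher and 20 lower by limma, and the 8 falls described here all passed again. Centring on the poly-A spikes, added to the RNA before labelling, gave 4 higher and 9 lower, and cyclic loess 6 and 10. Rises are therefore given relative to the other genes on the array.

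**Figure D1:**
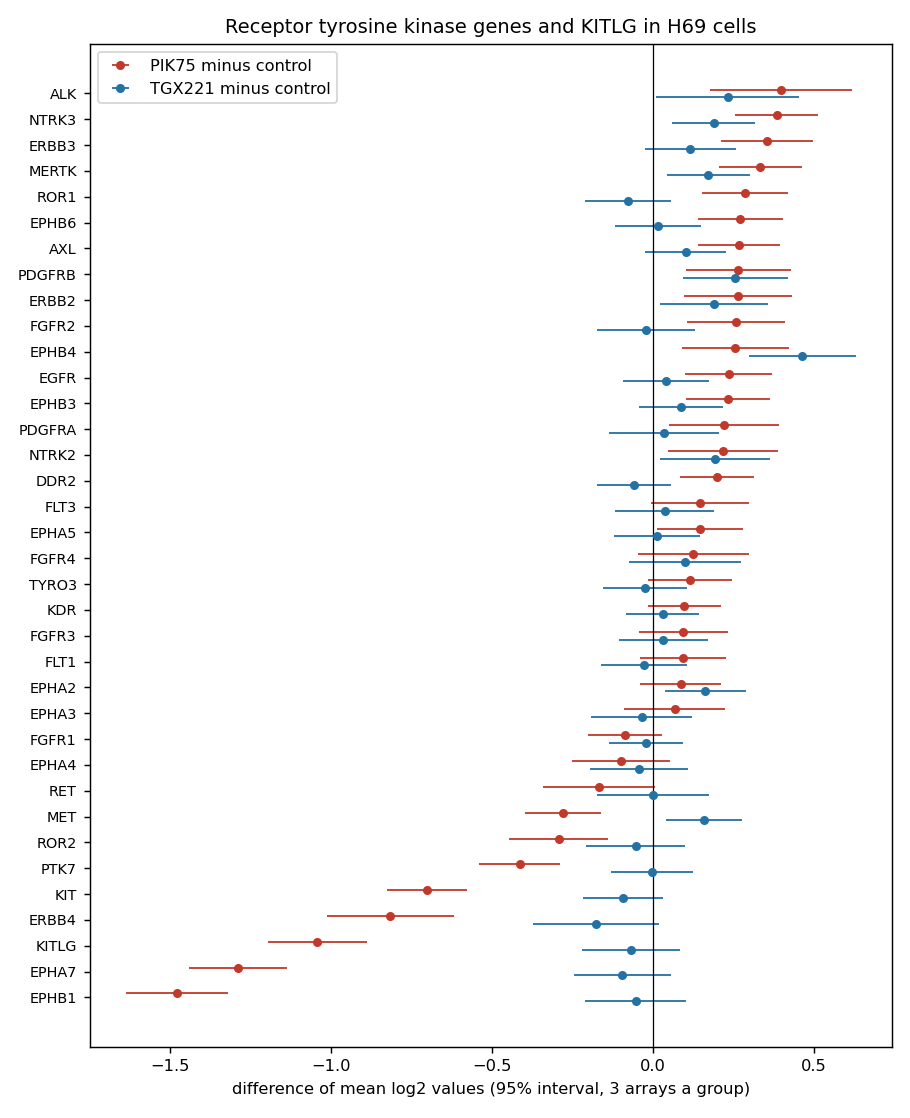
Difference of the mean log2 value from control (x axis) for the 36 measured genes (y axis), with PIK75 in red and TGX221 in blue, and 95% intervals from the fit over 3 arrays a group. With PIK75 the genes run from -1.48 for EPHB1 to 0.40 for ALK, and centring on the hybridization spikes turns most of the PIK75 rises below 0, while the TGX221 differences lie between -0.18 and 0.46.

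EPHB1, a receptor for B-type ephrins that guides axons, read 10.01, 10.01 and 10.2 on the control arrays, 8.56, 8.58 and 8.64 with PIK75 and 9.93, 10.16 and 9.96 with TGX221. The PIK75 arrays lay far below all others, and the TGX221 arrays fell within or beside the control range. The log2 difference with PIK75 was -1.48 (SE 0.0727, adjusted p = 8.48e-09 by limma). A second probe set of EPHB1 also fell (-0.80), and the third had a difference of -0.07 (adjusted p = 0.467 by limma).

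EPHA7, a receptor for A-type ephrins with a role in brain development, read 10.15, 10.27 and 10.3 in control cells, 9.1, 8.89 and 8.87 with PIK75 and 10.17, 10.18 and 10.08 with TGX221. Again the PIK75 arrays were separate from both other groups, which overlapped. The difference with PIK75 was -1.29 (SE 0.0694, adjusted p = 1.72e-08 by limma). Further probe sets of EPHA7 fell by 1.69 and 0.59 on the log2 scale, and the fourth was at -0.06 (adjusted p = 0.511 by limma).

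KITLG, the ligand of KIT, read 10.78, 10.73 and 10.83 on the control arrays, 9.9, 9.67 and 9.65 with PIK75 and 10.68, 10.78 and 10.68 with TGX221. The difference with PIK75 was -1.04 (SE 0.0706, adjusted p = 1.1e-07 by limma). The other 3 probe sets of KITLG were much dimmer, with overall means of 4.58 to 6.59, and none passed (0.03, 0.04 and 0.04).

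KIT itself, with 1 probe set, read 10.83, 10.85 and 10.74 in control cells, 10.15, 10.13 and 10.04 with PIK75 and 10.75, 10.64 and 10.75 with TGX221. Receptor and ligand were thus both lower on every PIK75 array than on any other array. The KIT difference was -0.70 (SE 0.0571, adjusted p = 5.61e-07 by limma).

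The promoters of these 4 genes are printed because the genes fell most or form a ligand and receptor pair. Each is the 250 bases before the first start that RefSeq lists for the gene (GRCh38.p14), 5′ to 3′ on the strand of the gene, with capitals for the GC box GGGCGG on either strand. EPHB1 lies at chr3:134795010-134795259 (+), EPHA7 at chr6:93419560-93419809 (-), KIT at chr4:54657707-54657956 (+) and KITLG at chr12:88580472-88580721 (-).
EPHB1: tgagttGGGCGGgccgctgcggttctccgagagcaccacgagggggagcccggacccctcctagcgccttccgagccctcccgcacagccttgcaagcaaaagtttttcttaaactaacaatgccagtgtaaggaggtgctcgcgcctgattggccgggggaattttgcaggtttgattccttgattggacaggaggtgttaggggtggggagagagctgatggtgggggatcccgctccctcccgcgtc
EPHA7: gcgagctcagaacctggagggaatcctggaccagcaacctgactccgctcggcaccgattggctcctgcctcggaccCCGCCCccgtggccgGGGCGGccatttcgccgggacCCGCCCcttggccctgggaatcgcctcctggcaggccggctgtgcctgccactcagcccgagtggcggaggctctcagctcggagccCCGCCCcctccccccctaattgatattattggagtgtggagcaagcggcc
KIT: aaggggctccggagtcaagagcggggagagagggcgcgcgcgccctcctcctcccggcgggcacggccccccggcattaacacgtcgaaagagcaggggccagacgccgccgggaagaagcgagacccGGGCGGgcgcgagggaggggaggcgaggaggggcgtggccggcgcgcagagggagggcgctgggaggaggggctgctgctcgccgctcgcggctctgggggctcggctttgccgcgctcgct
KITLG: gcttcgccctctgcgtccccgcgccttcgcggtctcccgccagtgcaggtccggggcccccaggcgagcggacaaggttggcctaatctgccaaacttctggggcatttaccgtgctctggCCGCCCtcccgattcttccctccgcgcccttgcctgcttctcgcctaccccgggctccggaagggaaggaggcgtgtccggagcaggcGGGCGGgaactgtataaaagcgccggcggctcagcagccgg

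A GC box was found in all 8 promoters of the genes that fell with PIK75, in 11 of 15 of those that rose and in 9 of 11 of those not called, beside 42.3% of 27305 genes with a promoter of this length. RefSeq entries matched 34 of the 36 genes, all but FGFR1 and ERBB3. The median GC content was 69.4% for the genes that fell, 69.2% for those that rose and 58.0% over all genes with a promoter. The letters TATAAA, on either strand, occurred in 3 of the 34 promoters (8.82%), KITLG among them, against 11.1% of all. These counts describe the letters of the windows and were not tested.

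ERBB4, the neuregulin receptor of the EGF receptor family, read 9.07, 9.24 and 9.03 in control cells, 8.51, 8.23 and 8.15 with PIK75 and 8.88, 9.04 and 8.89 with TGX221. The PIK75 arrays were below both other groups. The difference was -0.82 (SE 0.0901, adjusted p = 8.65e-06 by limma). The probe sets of ERBB4 disagreed, since the next brightest rose with PIK75 (0.27, adjusted p = 0.0142 by limma over all probe sets), with means of 8.12 against 7.85. Averaged over all 4 ERBB4 probe sets, the difference missed the threshold (adjusted p = 0.171 by limma), and the adjusted p of ERBB4 ran from 6.05e-17 to 0.171 over the alternatives.

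Its 3 relatives in the family, all called higher with PIK75, moved by less. ERBB3, which pairs with other ERBB receptors and has little kinase activity of its own, read 8.3, 8.12 and 8.35 in control cells and 8.53, 8.65 and 8.65 with PIK75 (difference 0.35, SE 0.0653, adjusted p = 0.000597 by limma). Of the 5 ERBB3 probe sets 4 rose, one of them by 0.77 from a dim mean of 5.57 to 6.34. EGFR, the receptor of EGF (0.24), and ERBB2, which has no known ligand of its own (0.26), rose too, and with the hybridization spikes they were at -0.12 and -0.09. EGFR read 7.32, 7.47 and 7.49 in control cells, 7.66, 7.72 and 7.6 with PIK75 and 7.49, 7.39 and 7.52 with TGX221, so only the PIK75 arrays stood above the control range as a group. Among 9 probe sets of EGFR 3 were higher with PIK75 and 1 was lower (-0.35). ERBB2 did not pass without PIK75 replicate 3.

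**Figure D2:**
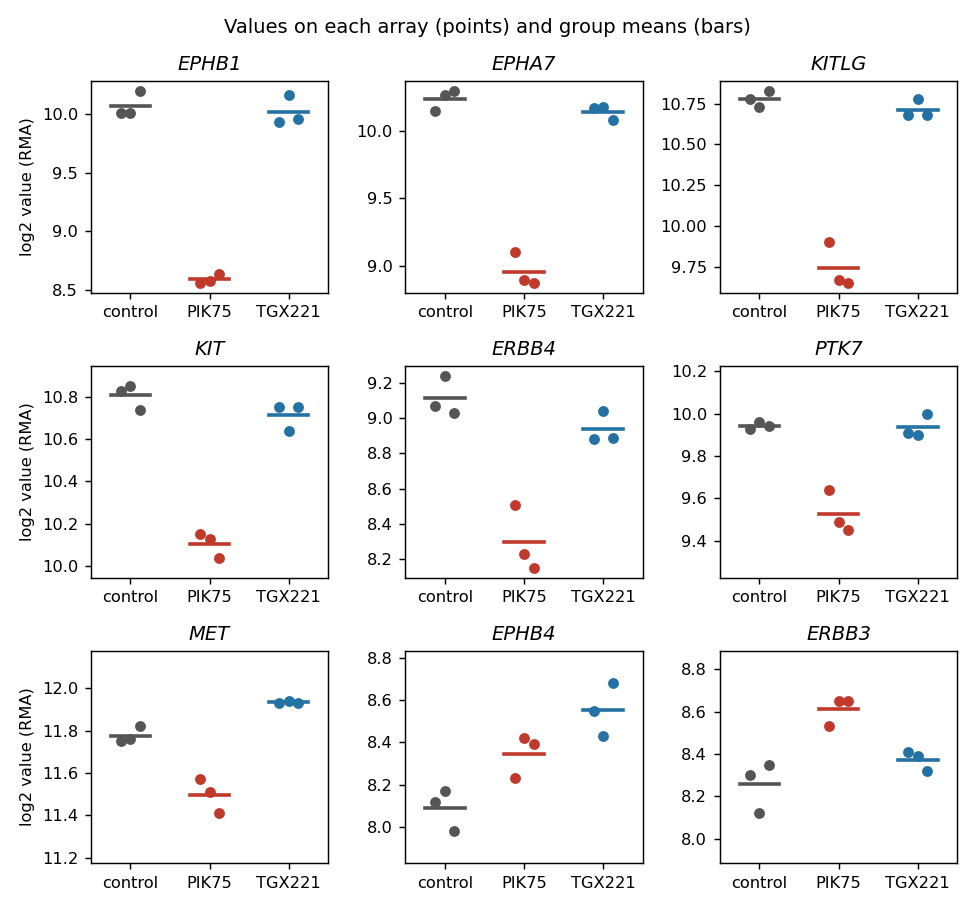
Log2 value on each of the 9 arrays (points) and group means (bars) for 9 genes, with control in grey, PIK75 in red and TGX221 in blue, and a y axis of its own in each panel. The PIK75 points of EPHB1, EPHA7, KITLG, KIT, ERBB4, PTK7 and MET lie below all control points, and those of EPHB4 and ERBB3 above them, although with the hybridization spikes EPHB4 turned to -0.10.

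Further falls with PIK75 were smaller. PTK7, a receptor-like protein of planar cell polarity without kinase activity, read 9.93, 9.96 and 9.94 in control cells and 9.64, 9.49 and 9.45 with PIK75 (-0.41, SE 0.0585, adjusted p = 7.28e-05 by limma). MET, the receptor of hepatocyte growth factor, read 11.75, 11.76 and 11.82 in control cells, 11.57, 11.51 and 11.41 with PIK75 and 11.93, 11.94 and 11.93 with TGX221. On this probe set the inhibitors lay on opposite sides of the control arrays, with differences of -0.28 for PIK75 (adjusted p = 0.000929 by limma) and 0.16 for TGX221 (adjusted p = 0.158). Of the other MET probe sets 1 was lower with PIK75 (-0.46) and at -0.26 with TGX221 (adjusted p = 0.242 by limma over all probe sets), and the next brightest was at 0.10 (adjusted p = 0.337 by limma over all probe sets). The only other probe set of PTK7 was dim and not called (-0.07). ROR2, a receptor of WNT5A, was dim in every group, at 5.66, 5.7 and 5.89 in control cells and 5.55, 5.35 and 5.48 with PIK75 (-0.29, adjusted p = 0.00365 by limma). The probe set of ROR2 was thus dim on both sides of its difference.

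The rises with PIK75 took in receptors of many families. Of the 16 genes called higher, 15 had a control mean below 9, a level chosen after the values were seen. Below that level 42.1% of all genes were called higher too. EGFR, PDGFRA, PDGFRB, NTRK2, ALK, ROR1 and EPHB6 had control means of 7.1 to 7.77. On the control arrays, mean values of marker lists for cells that a pure line should not hold ran from 6.69 to 7.82. ERBB2, ERBB3, FGFR2, NTRK3, DDR2, EPHB3 and EPHB4 lay above that range, and MERTK and AXL below it. Whether those levels reflect expressed receptors was not tested. ALK, a neural receptor, had the highest difference (0.40, SE 0.102, adjusted p = 0.00526 by limma), with 7.13, 7.31 and 7.21 in control cells and 7.41, 7.56 and 7.88 with PIK75. The other probe set of ALK was not called (0.07, adjusted p = 0.374 by limma over all probe sets). The ALK call was lost with the hybridization spikes and with cyclic loess. NTRK3, the receptor of neurotrophin-3, read 9.01, 8.96 and 9.09 in control cells and 9.33, 9.42 and 9.47 with PIK75 (0.38, adjusted p = 0.000143 by limma). The groups of both genes did not overlap, although ALK varied most on the PIK75 arrays. Of the 9 probe sets of NTRK3 4 rose and none fell. NTRK2, the receptor of brain-derived neurotrophic factor (0.22), rose by less, and RET, the GDNF receptor, was not called (-0.17, adjusted p = 0.0855 by limma).

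MERTK (0.33) and AXL (0.27), receptors that bind GAS6, rose, while TYRO3 of the same family was not called (0.12, adjusted p = 0.109 by limma). The control means of MERTK (6.1) and AXL (6.17) lay close to the dim level of 6. ROR1 (0.29) and DDR2, a collagen receptor (0.20), rose as well, but another probe set of ROR1 fell (-0.71, adjusted p = 0.000354 by limma over all probe sets) and the mean of its 3 probe sets was lower (-0.15). On its brightest probe set ROR1 read 7.65, 7.77 and 7.66 in control cells, 7.86, 8.03 and 8.04 with PIK75 and 7.59, 7.66 and 7.6 with TGX221, with the PIK75 arrays above all others. Among the platelet-derived growth factor receptors, PDGFRA (0.22) and PDGFRB (0.27) were higher. The call of PDGFRA was lost without control replicate 1 and without PIK75 replicate 3 or 5, and that of NTRK2 also without control replicate 3. The receptors of vascular endothelial growth factor, FLT1 (0.09) and KDR (0.10), and the blood cell receptor FLT3 (0.15, dim in every group) were not called.

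One of 4 fibroblast growth factor receptors rose on its brightest probe set, FGFR2 (0.26), and FGFR1 (-0.09), FGFR3 (0.09) and FGFR4 (0.13) were not called. FGFR1 read 9.5, 9.54 and 9.5 in control cells and 9.49, 9.34 and 9.45 with PIK75. Other probe sets gave more rises in this family: 4 of the 7 for FGFR1 (0.19 to 0.36) and 3 of the 4 for FGFR4 (0.25 to 0.54). With the hybridization spikes FGFR2 turned to -0.10 without passing, and FGFR3 (-0.26) and FGFR4 (-0.23) were called lower.

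Ephrin receptors split into large falls and small rises. Besides EPHB1 and EPHA7, none of the other A-type receptors among the 36 genes was called: EPHA2 (0.09), EPHA3 (0.07), EPHA4 (-0.10) and EPHA5 (0.15, adjusted p = 0.0541 by limma). Of the A-type receptors outside the set, EPHA1 (0.19), EPHA6 (0.19, dim), EPHA8 (0.19) and EPHA10 (0.23) were called higher, each by less than the 0.35 that the hybridization spikes take from all genes. EPHA4 read 7.98, 8.03 and 7.92 in control cells and 7.77, 7.81 and 8.05 with PIK75, so the groups overlapped. Its dimmer probe sets moved apart, with 2 lower (-0.40 and -0.76) and 1 higher (0.36). By limma over all probe sets, a dimmer probe set of EPHA5 was higher (0.39, adjusted p = 0.00236). One of EPHA3 was lower (-0.23, adjusted p = 0.0246). Of the B-type receptors EPHB3 (0.23), EPHB4 (0.26) and EPHB6, whose kinase is inactive (0.27), rose, each turning below 0 with the hybridization spikes (-0.12, -0.10 and -0.08). The EPHB4 rise was lost without control replicate 5 and without PIK75 replicate 3. By limma over all probe sets, the second probe sets of EPHB3 (0.02, adjusted p = 0.77) and EPHB4 (0.006, adjusted p = 0.951) were not called.

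**Figure D3:**
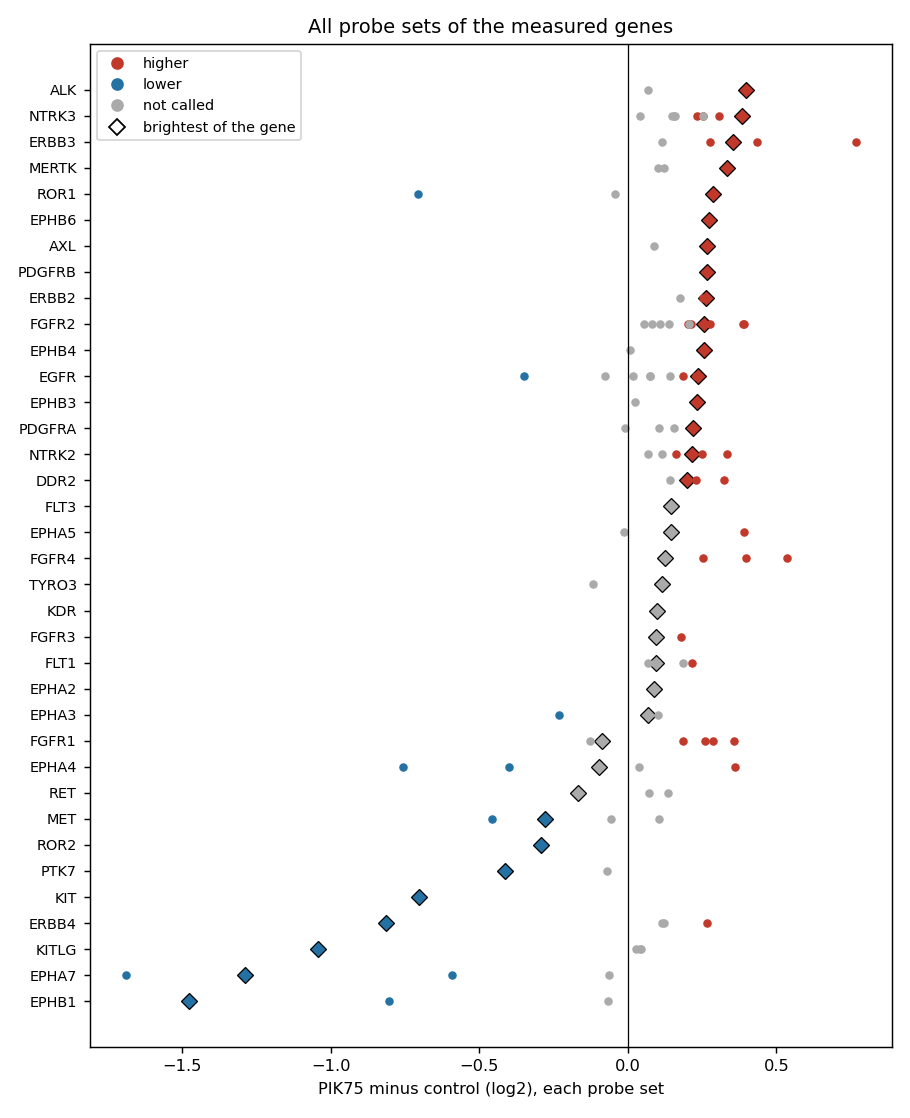
Difference between PIK75 and control (x axis, log2) for each of the 128 probe sets of the 36 genes (y axis), with red for higher, blue for lower and grey for not called at an adjusted p below 0.05 over all probe sets, and diamonds for the brightest probe set of a gene. EPHA7 and EPHB1 have more than 1 probe set far below 0, while EGFR, EPHA4, ERBB4 and ROR1 have probe sets called in both directions. Centring on the hybridization spikes moves every point by -0.35.

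The genes that fell were mostly those with a high value in control cells, a split made after the values were seen. Of 9 genes with a control mean of at least 9, 7 fell with PIK75, 1 rose (NTRK3) and 1 was not called (FGFR1). Of the 27 with a lower control mean, 15 rose, 1 fell (ROR2) and 11 were not called. All genes show the same split to a lesser degree, with 50.9% lower and 22.3% higher at or above 9, and 11.6% lower and 42.1% higher below it. The median difference at or above 9 was -0.70 for the set and -0.17 over all genes. Below 9 the medians were 0.22 and 0.14.

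**Figure D4:**
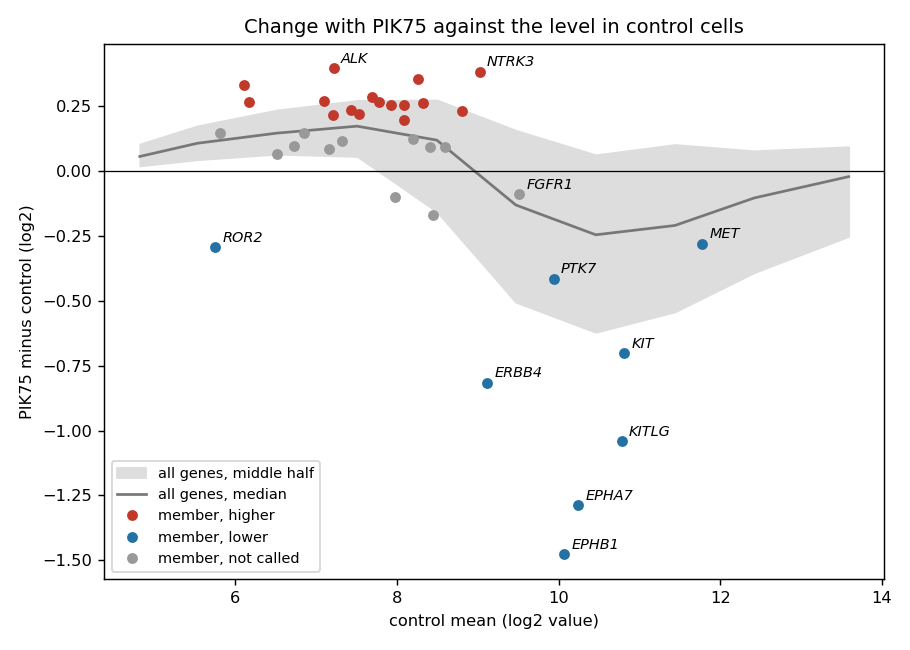
Difference between PIK75 and control (y axis, log2) against the control mean (x axis, log2) for the 36 genes (points, coloured by call), with the median of all genes (line) and the range between their lower and upper quartiles (grey band). EPHB1, EPHA7, KITLG, ERBB4 and KIT lie below the grey band at their level. Most of the rises lie within or close above the band, and with the hybridization spikes they and the line move down by 0.35.

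Markers of cells that a pure line should not hold moved as well. With PIK75, 3 of 6 leukocyte markers, 5 of 8 fibroblast markers, 3 of 7 endothelial markers and 4 of 7 markers of squamous and alveolar epithelium were called higher, and 0, 1, 1 and 0 lower, where 35.2% of all genes were higher and 25.2% lower. Most of these markers had a control mean below 9, where 42.1% of all genes were higher and 11.6% lower. The median differences of these marker lists were 0.18, 0.24, 0.17 and 0.17 in the same order. Both lower markers had high levels in control cells: POSTN of the fibroblast list, at a control mean of 12.1, fell by 0.86 on the log2 scale, and CLDN5 of the endothelial list, at 10.07, by 0.80. The mean of the leukocyte markers lay between 6.69 and 6.79 on the control arrays, 6.88 and 6.96 with PIK75 and 6.75 and 6.79 with TGX221. That of the fibroblast markers ran from 7.72 to 7.82, 7.81 to 7.9 and 7.75 to 7.85, that of the endothelial markers from 7.49 to 7.54, 7.54 to 7.58 and 7.51 to 7.53, and that of the epithelial markers from 7.66 to 7.72, 7.83 to 7.94 and 7.72 to 7.75 in the same order. Dim in control cells were 1 leukocyte and 1 epithelial marker. The part of these shifts in the rises of the receptors was not tested.

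With TGX221 1 of the 36 genes passed, EPHB4 (2.78%), where 1.21% of all genes were called (0.809% higher and 0.399% lower). An unadjusted p below 0.05 was found for 9 of the 36, and for 18.3% of all genes. The arrays lay apart for 9 genes above and 2 below control, where 23.9% of all genes were apart. EPHB4, a receptor of ephrin-B2 in vessels, read 8.12, 8.17 and 7.98 in control cells, 8.55, 8.43 and 8.68 with TGX221 and 8.23, 8.42 and 8.39 with PIK75. The TGX221 arrays were all above the control arrays (0.46, SE 0.0766, adjusted p = 0.0306 by limma). The second probe set of EPHB4 gave 0.02 (adjusted p = 0.904 over all probe sets). The call was lost on leaving out control replicate 1, 3 or 5, or TGX221 replicate 2 or 5, and over all alternatives the adjusted p ran from 0.000241 to 0.908.

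The intervals of the genes that fell with PIK75 on their brightest probe sets were as follows for TGX221, for the 5 that reached 0.5 with PIK75. For EPHB1 the TGX221 difference was -0.05 (95% interval -0.21 to 0.10), for EPHA7 -0.10 (-0.25 to 0.06), for KITLG -0.07 (-0.22 to 0.09), for KIT -0.09 (-0.22 to 0.03) and for ERBB4 -0.18 (-0.37 to 0.02). Dimmer probe sets of EPHA7 were lower on average with TGX221 by more than that interval allows, at -0.41 (adjusted p = 0.0712) and -0.29 (adjusted p = 0.0578 by limma over all probe sets), and neither passed. A dimmer probe set of EPHB1 was at -0.18 (SE 0.0553, adjusted p = 0.146 by limma).

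Set directly against TGX221, PIK75 gave lower values for 9 of the 36 genes and higher values for 9 (50% called), against 22.3% lower, 25.1% higher and 47.4% in all among all genes. Both comparisons share the PIK75 arrays. The differences were -1.42 for EPHB1, -1.19 for EPHA7, -0.97 for KITLG, -0.64 for ERBB4, -0.61 for KIT, -0.44 for MET, -0.41 for PTK7, -0.24 for ROR2 and -0.21 for EPHB4, the last with an adjusted p of 0.0409 by limma. Higher with PIK75 were ROR1 (0.36), FGFR2 (0.28), DDR2 (0.26), EPHB6 (0.26), ERBB3 (0.24), NTRK3 (0.20), EGFR (0.19), AXL (0.17) and MERTK (0.16). By limma, 0 of the 36 genes were called higher and 20 lower with the hybridization spikes, 0 and 10 with the poly-A spikes, and 5 and 11 with cyclic loess. The call of AXL was lost without PIK75 replicate 5 and without TGX221 replicate 2, 3 or 5, and that of MERTK without PIK75 replicate 3 or 5 and without TGX221 replicate 3 or 5. Calls were also lost without TGX221 replicate 3 for EGFR and NTRK3, without PIK75 replicate 3 for EGFR and ROR2, without PIK75 replicate 5 for NTRK3, and without PIK75 replicate 1 or 5 or TGX221 replicate 2 or 5 for EPHB4.

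The counts of the lists that follow stand beside 35.2% of all genes called higher and 25.2% called lower with PIK75, and a median of 0.09 over all genes. The ephrins, ligands of the EPH receptors, were split in the same comparison of PIK75 with control: 3 of 8 fell and 3 rose (median -0.09). EFNB2, a ligand of EPHB1 and EPHB4, read 9.27, 9.34 and 9.34 in control cells, 8.4, 8.33 and 8.53 with PIK75 and 9.12, 9.09 and 8.97 with TGX221 (PIK75 difference -0.90, SE 0.063, adjusted p = 1.49e-07 by limma). EFNA5, a ligand of EPHA7, was lower (-0.60), as was EFNA1 (-0.32), and EFNB3 was higher (0.38). EFNA5 read 9.32, 9.4 and 9.48 in control cells and 8.83, 8.75 and 8.82 with PIK75, without overlap.

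Of 40 measured growth factor ligands 22 rose and 6 fell with PIK75 (median 0.19), with 70% called beside 60.4% of all genes. PDGFD, a ligand of PDGFRB, was lower (-1.28, adjusted p = 2.35e-08 by limma), as were FGF9 (-0.58) and the RET ligand neurturin, NRTN (-0.66). FGF18 was higher (0.50) with PIK75 and also with TGX221 (0.43, adjusted p = 0.0254 by limma), where NRG1, a ligand of ERBB3 and ERBB4, was higher as well (0.38). NRG1, ERRFI1 and VEGFA are named after their values were seen. VEGFA, the ligand of FLT1 and KDR, read 11.05, 11.38 and 9.97 in control cells and 8.81, 9.93 and 8.17 with PIK75. Its difference was -1.83, with an SE of 0.434 that reflects the wide spread within both groups.

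Coreceptors had 5 of 15 higher and 3 lower with PIK75 (median 0.09). CD44, which presents growth factors to receptors such as MET, fell by 2.06 on the log2 scale, with 9.36, 9.35 and 9.56 in control cells and 7.53, 7.39 and 7.2 with PIK75. The heparan sulfate carriers SDC2 (-0.69) and SDC4 (-0.42) were lower and SDC1 was higher (0.29). Of 20 other receptor tyrosine kinases 13 rose and 2 fell (median 0.19). Both falls were in genes of a high control mean, RYK, a WNT receptor without kinase activity (-1.14), and IGF1R, the receptor of insulin-like growth factors (-0.64). TIE1 (0.47) and INSRR (0.43) rose.

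Below the receptors, adaptors and relays of the RAS-ERK pathway had 12 of 31 genes lower and 9 higher with PIK75 (median -0.03). STAT3, a transcription factor that receptors activate, was lower (-1.20), as were SOS1 (-0.83) and SOS2 (-1.07), which load RAS with GTP, and the adaptor CRKL was higher (0.56). Of 29 genes that restrain receptors 14 rose and 8 fell (median 0.14). The tyrosine phosphatases PTPRF (-1.40), PTPN2 (-1.39) and PTPRK (-0.59) and LRIG1, which promotes the breakdown of ERBB receptors (-0.75), were lower. PTPRF was also lower with TGX221 (-0.42, adjusted p = 0.0395 by limma), with 9.52, 9.68 and 9.62 in control cells and 8.99, 9.25 and 9.3 with TGX221. ERRFI1, an inhibitor of EGFR, was lower with both compounds (-0.57 and -0.33). With the hybridization spikes the medians of these lists shift down by the same 0.35 as all genes.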

How the data were processed

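Total RNA of H69 cells was labelled with biotin and hybridized to Affymetrix arrays, 1 per sample. The authors deposited log2 expression values per probe set made with RMA, per the submitters' processing notes. Version and genome build are not given in the sources used here. RMA makes the distributions of the arrays alike, so a shift shared by most genes is removed. Of 54675 probe sets, 41091 carried 1 gene symbol and gave 19775 genes, each through its brightest probe set. The platform annotation of symbols can be old.

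The fit used limma 3.58.1 in R 4.3.3 (lmFit, eBayes) with 1 mean for each of the 3 groups, on the 9 arrays together and without covariates. P-values were adjusted by Benjamini-Hochberg over all genes, or all probe sets where said, with 0.05 as threshold. The script was tested on simulated data. The number of arrays limits precision, and an exact permutation test of 3 against 3 arrays cannot go below 0.1.

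The genes, lists and tests were chosen with earlier results of these data known. Values per array are given for genes of the set called with PIK75 at a log2 difference of at least 0.5 or with TGX221, and for those with probe sets called both ways. Some further genes of the set are shown likewise. From other lists up to 4 called genes with the smallest p with PIK75 are named, besides those said to be chosen after their values were seen. The A-type ephrin receptors outside the set are named as well, outside that rule. Promoters were matched by symbol. Alternatives changed the scaling, filter, probe set, samples, variance model, array weights, replicate block and threshold.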

Additional observations from a re-analysis of the deposited data

How the results depend on the processing

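EPHB1, EPHA7, KIT and ROR2 kept direction and call between PIK75 and control under every alternative run for them. KIT and ROR2 have 1 probe set each, so the alternatives of probe set could not change their values. ROR2 was also dim in every group. Leaving out each array in turn gave 10242 to 11570 genes and 20 to 24 of the set called with PIK75 against control, 7752 to 9205 and 14 to 20 against TGX221, and 0 to 701 and 0 to 1 for TGX221 against control. For the last comparison, 239 genes and 1 of the set as reported, the counts by limma were 0 and 0 with only the 2 groups and at an adjusted p below 0.01, 30 and 0 with the mean of probe sets, 3 and 0 with the next brightest probe set, 1313 and 3 with array weights, and 508 and 2 with poly-A spikes, with 633 genes under hybridization spikes. At an unadjusted p below 0.05, 3620 genes and 9 of the set differed with TGX221 as fitted in the report. For PIK75 against control, 11947 genes and 24 of the set as reported, the counts were 7578 and 13 with poly-A spikes and 5552 and 12 with the next brightest probe set (fewer genes tested), and 7320 genes without dim genes (fewer tested). For PIK75 against TGX221, 9379 genes and 18 of the set as reported, they were 4256 and 11 with the next brightest probe set, and 10 of the set with poly-A spikes. Apart from fewer genes tested or samples used, the cause was not tested.

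Directions that turned, as log2 differences, came from the scaling or the probe set, and the cause was not tested. With hybridization spikes PIK75 against control gave EGFR -0.12, ERBB2 -0.088, FGFR2 -0.10, FGFR3 -0.26, FGFR4 -0.23, PDGFRA -0.13, PDGFRB -0.086, NTRK2 -0.13, FLT1 -0.26, FLT3 -0.21, KDR -0.25, AXL -0.085, MERTK -0.018, TYRO3 -0.24, DDR2 -0.15, ROR1 -0.066, EPHA2 -0.27, EPHA3 -0.28, EPHA5 -0.21, EPHB3 -0.12, EPHB4 -0.10 and EPHB6 -0.08. Against TGX221 that scaling gave EGFR -0.093, ERBB2 -0.21, ERBB3 -0.049, FGFR2 -0.010, FGFR3 -0.22, FGFR4 -0.26, PDGFRB -0.28, NTRK2 -0.26, NTRK3 -0.091, KDR -0.22, AXL -0.12, MERTK -0.13, DDR2 -0.030, EPHA3 -0.18 and EPHB6 -0.031. The mean of probe sets gave FGFR1 0.11 and ROR1 -0.15 against control, and FGFR1 0.11 and ROR1 -0.075 against TGX221. The next brightest probe set gave KITLG 0.029, MET 0.10, ERBB4 0.27, FGFR1 0.36, ROR1 -0.045 and EPHA3 -0.23 against control, and MET 0.054, ERBB4 0.24, FGFR1 0.33, MERTK -0.015 and ROR1 -0.0039 against TGX221.

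Replicate numbers are shared between groups, and whether same-numbered arrays belong together is not given in the labels used here. Correlations over genes cannot decide this. Deviations of same-numbered arrays correlated at -0.134, 0.122 and -0.0462 for PIK75 and control. The correlations were 0.0815 and -0.0226 for TGX221 and control and 0.0649 and 0.235 for PIK75 and TGX221. With the replicate block, limma called 11424 genes and 24 of the set for PIK75 against control, 0 and 0 for TGX221 against control, and 7771 and 16 for PIK75 against TGX221. Of the treated arrays, only PIK75 replicate 3 correlated best with the control array of its own number. TGX221 replicate 2 has no control array of its number.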
